A study of Homo sapiens with 6 samples.

Results

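The genes described here are 43 genes of the cellular response to low oxygen and of glycolysis, taken as every row of the deposited expression table whose symbol is on a fixed list of names and read in all 6 libraries. Each of the 43 had 1 row among the 60546 genes of the table, and all 43 passed the filter on low values, a normalized read count of at least 1 in at least 3 libraries, which kept 26536 genes. The libraries are RNA-seq of cells that the study describes as HCT-116, an established human colon carcinoma line, grown in Dulbecco's modified Eagle's medium with serum. By its description they were infected with the viral expression vector PMSCV, either carrying GOLPH3 (3 libraries, here GOLPH3) or empty (3 libraries, here Vector). The study's methods describe cells taken from different generations of each infected line. By this account each group is a single line, and the p-values of the main label comparison measure the spread between samples of that line. In the sample titles a P stands before a number, and the labels do not explain it. GOLPH3 has P8, P12 and P13 and Vector has P11, P12 and P13, and every list of values below follows that order. The labels give the genotype of all 6 as wild type and name neither an oxygen level nor a hypoxia treatment.

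The hypoxia-inducible factors are pairs of an oxygen-sensitive alpha subunit, such as HIF1A or EPAS1, and a constant partner. In oxygen, prolyl hydroxylases such as EGLN1 and EGLN3 mark the alpha subunit for destruction, and when oxygen is short the pair binds promoters and enhancers and switches on target genes, EGLN3 among them. Many targets move glucose metabolism towards lactate, from glucose uptake through the glycolytic enzymes to lactate export, and cancer cells often run this programme in oxygen as well. The abundance of a HIF transcript is a poor guide to HIF activity, because the protein is set mainly by its breakdown.

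The values are normalized reads, that is whole reads scaled by 1 factor for each library and not adjusted for the length of a gene. The libraries held 15708846 to 21900764 reads, and mitochondrial genes took 4.41% to 9.97% of them. At this depth 3 reads, the limit that a count of 0 allows, are 2.47 to 3.29 normalized reads, which covers counting error only. The transcript of GOLPH3 itself had 1629.5, 1272 and 1383 normalized reads in GOLPH3 and 1892, 1968 and 1472 in Vector (log2 fold change -0.31, SE 0.27, adjusted p = 0.609, limma), so the group names follow the labels alone. Markers of colon epithelium summed to 85376 to 160037 normalized reads in GOLPH3 and 39770 to 46712 in Vector. The keratin gene KRT8 had the highest value among them in every library. By the test used below 5 of 14 tested markers were called higher and 0 lower. CDX2 was the 1 with a negative log2 fold change (-0.52, adjusted p = 0.636, limma). It had 247 to 358 normalized reads in GOLPH3 and 184 to 897 in Vector. CDX1 and KRT20 were at or under 3 reads in every library, and VIL1 and LGALS4 in every Vector library. Mesenchymal markers summed to 1601 to 2012 in GOLPH3 and 4060 to 7256 in Vector, with 5 of 10 tested called lower and 0 higher. The list was not uniform, with 3 of the 10 positive. At an unadjusted p under 0.05 in limma 7 were lower and 2, COL1A1 and THY1, higher. COL1A1 had 800 to 1499 normalized reads in GOLPH3 and 466 to 726 in Vector. Of 8 markers of the embryonic kidney line HEK293, which summed to 524 to 863 in GOLPH3 and 3696 to 11557 in Vector, 5 were called lower, and these 5 (IRS4, NEFL, NEFM, UCHL1 and HAND1) were at or under 3 reads in every GOLPH3 library. These differences run with the label, and their part in the label results below was not tested. Whether the libraries of both groups come from the same parental line was not tested either, so the line name follows the study alone. In bulk RNA, a change in the share of cells that express a gene and a change in RNA per cell cannot be told apart.

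The plot of all members by library shows 2 patterns side by side, one with the label and one with the number after P. The GOLPH3 library at P13 was the highest of the 6 for 25 of the 43 members, and the GOLPH3 library at P12 was the lowest for 16. The 15 glycolytic enzymes together took 0.964%, 0.897% and 1.23% of the normalized reads in GOLPH3 and 0.780%, 0.801% and 0.937% in Vector. That share was highest at P13 in both groups.

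**Figure D1:**
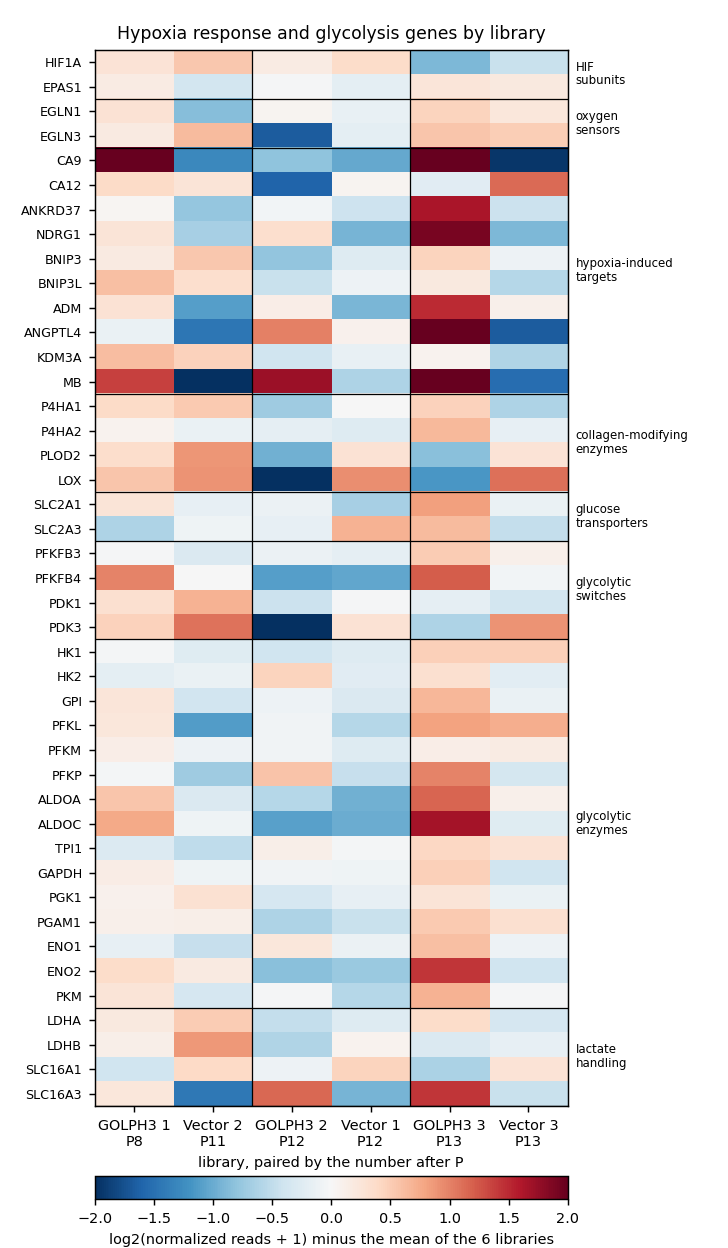
Levels of the 43 genes in the 6 libraries, as log2(normalized reads + 1) minus the mean of the 6 libraries for each gene (colour scale), with the genes grouped by role down the side and the libraries paired by the number after P along the bottom. The GOLPH3 library at P13 is the highest for 25 of the 43 genes and the GOLPH3 library at P12 the lowest for 16.

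Between the labels, the lactate exporter SLC16A3, the hypoxia-induced gene NDRG1 and the oxygen-binding protein gene MB rose in GOLPH3, and 0 members fell. The comparison asks which genes differ between the libraries labelled GOLPH3 and those labelled Vector. It was made with limma on log2(normalized reads + 1), with p-values adjusted over all 26536 genes by the Benjamini-Hochberg method and a call at an adjusted p under 0.05. With 3 of 43 members called (6.98%, beside 5.07% of all genes tested, 0.953% called higher and 4.12% lower), the share of members called was close to the background. This fit has no term for the number after P, and with one 16 members were called beside 20.9% of all genes, as given in full further on. Calls and adjusted p-values up to there come from the fit without it. With it LOX, PLOD2, PDK3, SLC16A1, ANGPTL4, CA9 and PFKP passed, and so did ADM, SLC2A1, GPI, PKM, ALDOC and PFKL. At an unadjusted p under 0.05 there were 7 higher and 4 lower, beside 17.6% of all genes in either direction. DESeq2 called 6 higher and edgeR 3 higher on the recovered reads, and 0 lower each. The median log2 fold change of the members was 0.25, beside 0.02 for all genes, with 30 members positive and 13 negative, beside 50.9% of all genes positive. Every GOLPH3 library was above every Vector library for 11 members, and every one was below for 2, beside 9.2% and 12.8% of all genes.

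Among the lactate genes, SLC16A3 (ENSG00000141526), which encodes the monocarboxylate transporter MCT4 that exports lactate, had 5156, 9828 and 11891 normalized reads in GOLPH3 and 1635, 2321 and 3223 in Vector. All 3 GOLPH3 libraries were above all 3 Vector libraries, with means of 8958 ± 3451 against 2393 ± 797 (SD, n = 3 each), and the gene was higher in GOLPH3 (log2 fold change 1.87, SE 0.37, adjusted p = 0.00958). The gene lies on chromosome 17 from 82228397 to 82261129 on the plus strand in GENCODE 29 on GRCh38, and 5.36% of its exon bases are shared with CSNK1D on the other strand, which had 1381 to 4174 normalized reads. Its relative SLC16A1, which encodes the transporter MCT1 that carries lactate in either direction, had 2805, 3445 and 2377 normalized reads in GOLPH3 and 4852, 5017 and 4457 in Vector. The groups did not overlap in the opposite direction, but this difference did not pass the adjusted threshold (log2 fold change -0.75, SE 0.27, adjusted p = 0.16, 95% confidence interval -1.33 to -0.16). Per kb of exon, the level of SLC16A1 over that of SLC16A3 was 0.921, 0.594 and 0.339 in GOLPH3 and 5.03, 3.66 and 2.34 in Vector. SLC16A1 was thus the lower of the pair in every GOLPH3 library and the higher in every Vector library. LDHA, the lactate dehydrogenase subunit that favours lactate formation, had 19254, 12027 and 21561 normalized reads in GOLPH3 and 23683, 13987 and 13320.0 in Vector (log2 fold change 0.06, adjusted p = 0.952), and LDHB, the heart-type subunit, had 893, 543 and 671 normalized reads in GOLPH3 and 1507, 865 and 735 in Vector (log2 fold change -0.52, adjusted p = 0.481). Both subunits overlapped between the groups.

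Of the 10 hypoxia-induced targets, NDRG1 and MB rose in GOLPH3, and the median log2 fold change of the 10 was 1.18. NDRG1 (ENSG00000104419), a stress-responsive gene linked to differentiation, had 2756, 2896 and 8581 normalized reads in GOLPH3 and 1444, 1199 and 1229.8 in Vector, with the P13 library far above the other GOLPH3 libraries (log2 fold change 1.67, SE 0.40, adjusted p = 0.0328). MB, which encodes myoglobin, was at low levels throughout, with 19.3, 24.7 and 31.0 normalized reads in GOLPH3 and 0, 4.12 and 1.72 in Vector, and lay at or under 4 reads in all 3 Vector libraries (log2 fold change 3.41, SE 0.70, adjusted p = 0.013). Leaving out the P13 library of either group left SLC16A3 as the single member called, and leaving out the P12 library of Vector lost NDRG1. Without the GOLPH3 library at P8 there were 8 calls, and without that at P12 there were 5.

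Next in order of p were ANGPTL4 and CA9, which did not pass the adjusted threshold. ANGPTL4, a secreted inhibitor of lipoprotein lipase, had 396, 874 and 1939 normalized reads in GOLPH3 and 159, 462 and 137 in Vector (log2 fold change 2.01, SE 0.57, adjusted p = 0.0699). Its GOLPH3 library at P8 lay below the Vector library at P12. CA9, the membrane carbonic anhydrase used as a marker of hypoxic tumour cells, had 44.0, 4.95 and 80.1 normalized reads in GOLPH3 and 3.29, 4.12 and 1.72 in Vector (log2 fold change 2.84, SE 0.87, adjusted p = 0.0952). At P12 it was at a similar low level in both groups, and the 3 Vector libraries were near the limit of 3 reads. CA9 shares 38.5% of its exon bases with ARHGEF39 on the other strand (266 to 600 normalized reads), and the strand setting of the counting is not given in the sources used here. The other targets had log2 fold changes of 1.27 (adjusted p = 0.124) for the vasodilator peptide gene ADM, 1.08 (adjusted p = 0.301) for ANKRD37, 0.24 (adjusted p = 0.783) for the mitophagy receptor BNIP3L, 0.19 (adjusted p = 0.834) for the histone demethylase KDM3A, -0.12 (adjusted p = 0.906) for BNIP3 and -0.96 (adjusted p = 0.394) for CA12. ADM and ANKRD37 were above all Vector libraries in every GOLPH3 library.

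**Figure D2:**
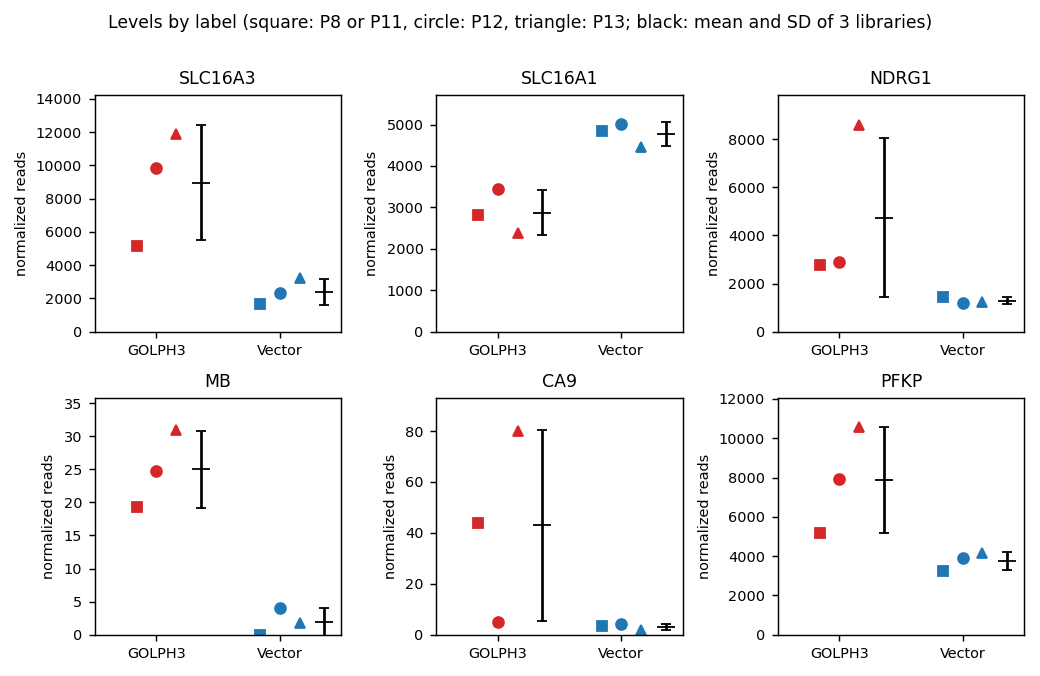
Normalized reads of 6 genes by label, each point 1 library, with squares for P8 or P11, circles for P12 and triangles for P13, and the mean and SD of the 3 libraries in black. SLC16A3, NDRG1, MB, CA9 and PFKP have every GOLPH3 library above every Vector library, and SLC16A1 has every GOLPH3 library below. For CA9 the P12 libraries are nearly equal, with 6 reads in GOLPH3 and 4 in Vector.

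Of the 15 glycolytic enzymes, 2 glucose transporters and 4 glycolytic switches 0 passed the label test in limma, with 1 enzyme higher and 1 switch lower at an unadjusted p under 0.05, while DESeq2 called PFKP and edgeR called 0. In these data 13 of the 15 enzymes had a positive log2 fold change, with a median of 0.45. PFKP, the platelet-type phosphofructokinase, had 5169.8, 7899 and 10577 normalized reads in GOLPH3 and 3262, 3883 and 4156 in Vector (log2 fold change 1.01, SE 0.31, adjusted p = 0.0973). GPI, GAPDH and PKM, which encode glucose phosphate isomerase, glyceraldehyde phosphate dehydrogenase and pyruvate kinase, also had every GOLPH3 library above every Vector library, at log2 fold changes of 0.54 (adjusted p = 0.377), 0.37 (adjusted p = 0.586) and 0.62 (adjusted p = 0.353). The main glucose transporter gene SLC2A1 had 7685, 5977 and 11405 normalized reads in GOLPH3 and 5751, 4075 and 5918 in Vector (log2 fold change 0.64, adjusted p = 0.33), also without overlap, while the second transporter gene SLC2A3 had 236, 327 and 567 normalized reads in GOLPH3 and 345, 593 and 263 in Vector (log2 fold change -0.10, adjusted p = 0.929) and overlapped. Per kb of exon, SLC2A1 was 8.96 to 42.4 times the level of SLC2A3. The first enzyme of the pathway came from both hexokinase genes, with 1626, 1267 and 2323 normalized reads in GOLPH3 and 1416, 1399 and 2317 in Vector for HK1 (log2 fold change 0.02, adjusted p = 0.985) and 1926, 2993 and 2762 normalized reads in GOLPH3 and 1999, 1882 and 1897 in Vector for HK2 (log2 fold change 0.39, adjusted p = 0.522). HK1 over HK2 was 0.407 to 1.18 per kb. The remaining enzymes lay between -0.01 (adjusted p = 0.996) for PGK1 and 0.89 (adjusted p = 0.466) for ALDOC on the log2 scale. PFKFB3 and PFKFB4 were at 0.24 (adjusted p = 0.721) and 0.73 (adjusted p = 0.544) and PDK1 at -0.20 (adjusted p = 0.823).

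The members that were lower in GOLPH3 included collagen-modifying enzymes and a brake on pyruvate use. LOX, the collagen cross-linking lysyl oxidase, had 65.5, 8.25 and 19.2 normalized reads in GOLPH3 and 83.3, 85.4 and 96.1 in Vector and did not overlap (log2 fold change -1.94, SE 0.64, adjusted p = 0.119). PLOD2, a collagen lysyl hydroxylase, had 1101, 440.3 and 481 normalized reads in GOLPH3 and 1587, 1055 and 1044 in Vector (log2 fold change -0.97, adjusted p = 0.195). PDK3, a kinase that shuts off pyruvate dehydrogenase, had 685, 113 and 321 normalized reads in GOLPH3 and 1056, 602 and 928 in Vector (log2 fold change -1.52, adjusted p = 0.148). None of these passed the adjusted threshold, and the prolyl hydroxylase subunit genes P4HA1 and P4HA2 had log2 fold changes of 0.08 (adjusted p = 0.944) and 0.37 (adjusted p = 0.579). Upstream of the targets, HIF1A was at -0.32 (adjusted p = 0.721), EPAS1 at 0.25 (adjusted p = 0.693), EGLN1 at 0.52 (adjusted p = 0.475) and EGLN3 at -0.62 (adjusted p = 0.608), so 0 of the HIF subunits and oxygen sensors were called between the labels, and 0 at an unadjusted p under 0.05 or by DESeq2 or edgeR.

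Within matched numbers after P, the label difference was uneven. Its median over the members was a log2 value of 0.02 at P12, with 22 of 43 positive, 0.69 at P13, with 35 positive, and 0.22 for P8 minus P11, with 28 positive, beside 0.00, -0.01 and -0.01 for all genes. These are single library pairs with no error of their own. In 20 members all 3 differences were positive and in 6 all were negative, beside 24.2% and 26.0% of all genes. The test of whether the label difference at P12 differed from that in the other 4 libraries called 0 genes in limma, with 1.12% of genes and 1 member, CA9, at an unadjusted p under 0.05 (log2 difference -3.93, unadjusted p = 0.0223). When the number after P was a term in the label fit (P12, P13, and P8 with P11 as 3 levels), 16 members were called, 12 higher and 4 lower, beside 20.9% of all genes (9.43% higher, 11.5% lower). The 12 were SLC16A3, MB, NDRG1, ADM, ANGPTL4, CA9, SLC2A1, GPI, PFKL, PFKP, ALDOC and PKM, and the 4 were LOX, PLOD2, PDK3 and SLC16A1.

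**Figure D3:**
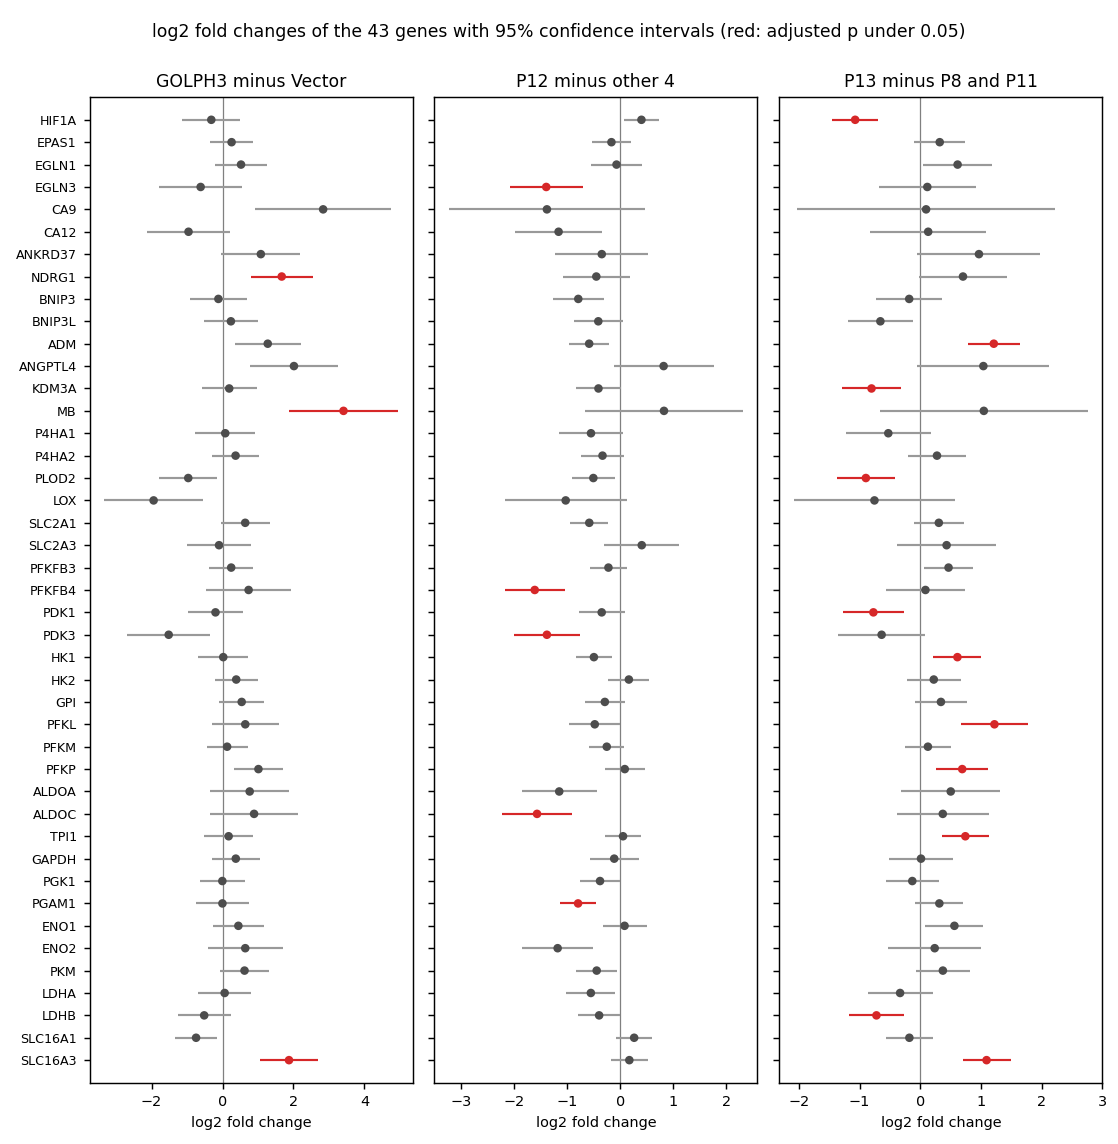
log2 fold changes of the 43 genes with their 95% confidence intervals for the label comparison (left), the P12 pair against the other 4 libraries (middle) and the P13 pair against P8 and P11 (right), with calls at an adjusted p under 0.05 in red. The calls are 3 higher in the left panel, 5 lower in the middle panel, and 6 higher and 5 lower in the right panel.

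Across the numbers after P, the P12 libraries of both lines had less of PFKFB4, ALDOC, PGAM1, PDK3 and EGLN3 than the average of the other 4 libraries, with the label in the fit. The P12 pair was compared with the mean of the P13 pair and the P8 and P11 pair. P8 and P11 were taken as 1 level, so each group gave 1 library to each level. The error in this fit is thus how far the label difference varied between the levels, and limma draws on the other genes to estimate it. The same holds for the P13 comparison and for the label fit with the number after P as a term. Of the 43 members 5 fell (11.6%, beside 4.04% of all genes, 1.42% called lower and 2.62% higher) and 0 rose at an adjusted p under 0.05, while 15 were lower and 1 higher at an unadjusted p under 0.05, beside 17.4% of all genes in either direction. On the recovered reads DESeq2 called 9 lower and edgeR 4 lower, and 0 higher each. The median log2 fold change of the members was -0.41, beside 0.02 for all genes, with 33 of 43 negative, beside 51.5% of all genes positive. In 10 members both P12 libraries lay below the other 4, beside 6.1% of all genes, and in 0 members both lay above, beside 6.74%. These results rest on the GOLPH3 library at P12. Without it 0 members were called, with 6 at an unadjusted p under 0.05, and the median was -0.12. Leaving out the Vector library at P12 kept 4 of the 5, losing PGAM1 (adjusted p = 0.126) and adding ENO2, and leaving out any other library gave 8 to 15 calls. The GOLPH3 library at P12 had the deepest sequencing of the 6 and the lowest mitochondrial share, 4.41%, beside 7.08% in the Vector library at P12 and 4.71% to 9.97% in the other 4, and the part of depth and mitochondrial share in the result was not tested. Of the marker lists, 2 of 14 colon epithelial markers were called higher at P12 and 1 lower, 1 of 10 mesenchymal markers, VIM, was called higher at a log2 fold change of 1.40 (adjusted p = 0.0351), and 0 of 8 HEK293 markers were called in limma, DESeq2 or edgeR, with 1 lower at an unadjusted p under 0.05. The summed colon markers were lowest at P12 in each line, at 85376 normalized reads in GOLPH3 and 39770 in Vector. KRT8, the marker called lower, was the largest value in that sum in every library. It had 42608, 25226 and 75110 normalized reads in GOLPH3 and 19434, 13626 and 23728 in Vector. CLDN7 and ESRP1, the 2 called higher, were highest at P12 in each line, so the sum does not describe every marker. The part of these markers was not tested.

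Of the 4 glycolytic switches, PFKFB4 and PDK3 fell at P12. PFKFB4, which makes the activator of phosphofructokinase fructose 2,6-bisphosphate, had 662, 154 and 769.7 normalized reads in GOLPH3 and 331, 161 and 320.1 in Vector. The 2 P12 libraries were nearly equal and lower than the rest (log2 fold change -1.61, SE 0.26, adjusted p = 0.00533), at 0.328 times the level of the others. PDK3, whose values are given above, was lower at P12 within each line, although the Vector library at P12 was above the GOLPH3 library at P13 (log2 fold change -1.38, SE 0.28, adjusted p = 0.0184). Their relatives were not called, PFKFB3 at a log2 fold change of -0.22 (adjusted p = 0.535) and PDK1 at -0.35 (adjusted p = 0.413).

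Of the glycolytic enzymes, the brain-type aldolase ALDOC and the phosphoglycerate mutase PGAM1 fell at P12. ALDOC had 1007, 279 and 1879.8 normalized reads in GOLPH3 and 559, 296 and 500.3 in Vector (log2 fold change -1.57, SE 0.30, adjusted p = 0.0138), so its P12 libraries were alike while the P13 libraries of the lines were far apart. PGAM1 had 6678, 4077 and 8952 normalized reads in GOLPH3 and 6798, 4607 and 7836 in Vector (log2 fold change -0.79, SE 0.16, adjusted p = 0.0154), with the lines close to each other at every number, and its call was lost without either P12 library. ENO2, the neuronal enolase, showed both P12 libraries below the other 4, with 1211, 525 and 2525 normalized reads in GOLPH3 and 1063, 563 and 708 in Vector, but just missed the threshold (log2 fold change -1.18, SE 0.31, adjusted p = 0.0541). Also below the other 4 in both P12 libraries, without passing, were BNIP3 at -0.79 (adjusted p = 0.0697), ALDOA at -1.15 (adjusted p = 0.0749), HK1 at -0.50 (adjusted p = 0.113), PGK1 at -0.38 (adjusted p = 0.292) and P4HA2 at -0.33 (adjusted p = 0.408) (log2 fold changes). Of the abundant enzyme genes, GAPDH, ENO1 and TPI1 had P12 log2 fold changes of -0.11 (adjusted p = 0.856), 0.08 (adjusted p = 0.887) and 0.05 (adjusted p = 0.914), and PKM had -0.44 (adjusted p = 0.212) with a 95% confidence interval -0.82 to -0.06.

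**Figure D4:**
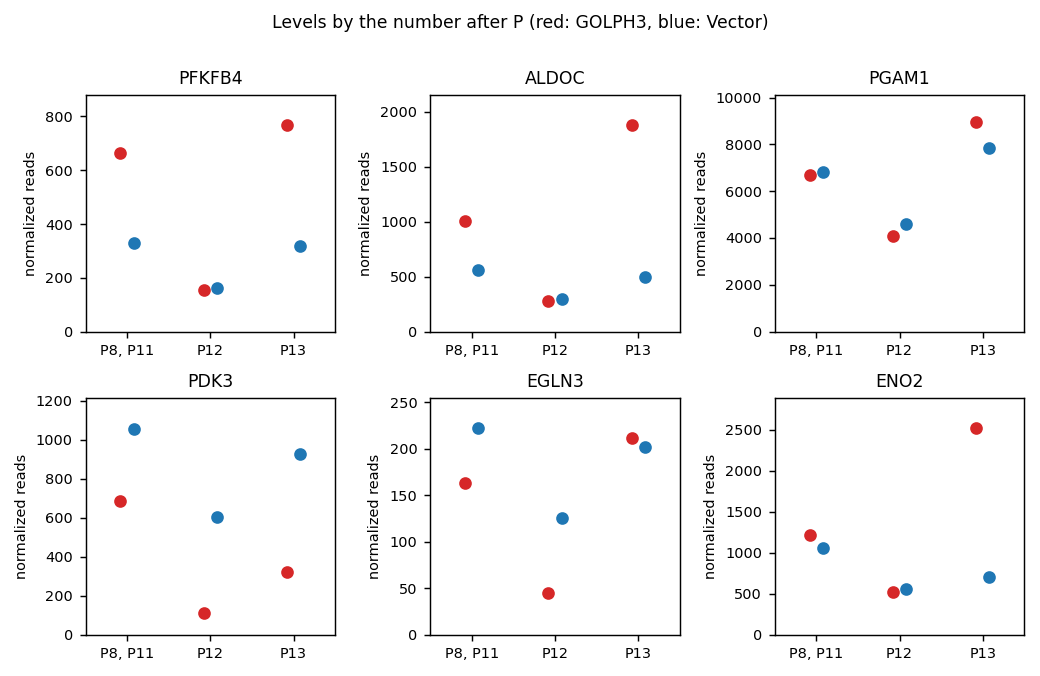
Normalized reads of the 5 genes called lower at P12 and of ENO2, by the number after P, each point 1 library, with GOLPH3 in red and Vector in blue. In PFKFB4, ALDOC, PGAM1, EGLN3 and ENO2 both P12 libraries lie below the other 4, and in PDK3 the Vector library at P12 lies above the GOLPH3 library at P13.

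Of the oxygen sensors, EGLN3, itself a HIF target, had 163, 44.5 and 211 normalized reads in GOLPH3 and 222, 126 and 202 in Vector and fell at P12 (log2 fold change -1.39, SE 0.32, adjusted p = 0.0308), most in the GOLPH3 line. EGLN1, the main oxygen sensor, had 557, 475 and 619 normalized reads in GOLPH3 and 252, 412 and 533 in Vector and a P12 log2 fold change of -0.07 (adjusted p = 0.924). Per kb of exon EGLN1 exceeded EGLN3 in every library, 1.15 to 10.8 times.

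A further list of 40 other HIF targets did not move one way at P12: 6 were called higher and 2 lower, with a median log2 fold change of -0.07. Among the higher ones were STC2 and DDIT4, which encode a secreted glycoprotein and an inhibitor of mTORC1, and both are known to respond to other stresses as well. STC2 had 1463, 18502 and 4805 normalized reads in GOLPH3 and 986, 6540.1 and 4261 in Vector (P12 log2 fold change 2.24, adjusted p = 0.000305), and DDIT4 had 1228, 7703 and 5482 normalized reads in GOLPH3 and 167, 2962 and 2199 in Vector (1.93, adjusted p = 0.00221). The 2 lower ones were PPFIA4 at -2.41 (adjusted p = 0.00441) and AK4, a mitochondrial adenylate kinase, at -0.65 (adjusted p = 0.0371). Of 26 tested other glycolysis genes, PCK2 at 1.68 (adjusted p = 0.000539) and HKDC1 at 2.57 (adjusted p = 0.000834) were higher and BPGM at -1.27 (adjusted p = 0.0108) was lower. None of 14 HIF regulators, 12 genes of pyruvate entry to mitochondria and 8 genes of the pentose phosphate pathway was called at P12 in limma, with 3, 3 and 1 at an unadjusted p under 0.05. DESeq2 called 1 of the HIF regulators higher and edgeR called 0. In the label comparison these further lists gave few calls, all lower: RORA (-4.61, adjusted p = 0.000123) and STC1 (-2.84, adjusted p = 0.0304) among the HIF targets and LDHC (-3.68, adjusted p = 0.0208), the testis-type lactate dehydrogenase, among the glycolysis genes.

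Of the main comparisons, the P13 pair against P8 and P11 gave the most calls, among the members as among all genes. HIF1A itself was lower and a set of glycolytic enzymes higher. Of the 43 members 6 rose and 5 fell (25.6%, beside 16.9% of all genes, 10.0% higher and 6.84% lower), and the median log2 fold change was 0.27, beside 0.06 for all genes. At an unadjusted p under 0.05 there were 9 higher and 6 lower, beside 29.9% of all genes in either direction, and 30 members were positive, beside 52.1% of all genes. In 6 members both P13 libraries were above the other 4 and in 1, HIF1A, below, beside 8.88% and 8.29%. Against P8 and P11 alone, both P13 libraries were above in 7 members and below in 6, beside 5724 and 6045 of the 26536 genes. On each side this was a smaller share of the members than of all genes. P13 is also replicate number 3 in both groups, so the number after P and the replicate number cannot be told apart. HIF1A (ENSG00000100644), the alpha subunit, had 3644, 3379 and 1619 normalized reads in GOLPH3 and 4403, 3925 and 2233 in Vector, and both P13 libraries were below the other 4 (log2 fold change -1.07, SE 0.17, adjusted p = 0.00301). EPAS1, the other alpha subunit, had 1357, 1199 and 1431 normalized reads in GOLPH3 and 938, 1054 and 1386 in Vector and did not pass (log2 fold change 0.32, SE 0.19, adjusted p = 0.299), although both of its P13 libraries were the highest. The ratio of HIF1A to EPAS1 per kb of exon was 3.81, 4.0 and 1.6 in GOLPH3 and 6.66, 5.28 and 2.28 in Vector, lowest at P13 in each line.

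ADM rose at P13 in each line, with 1019, 913 and 2359 normalized reads in GOLPH3 and 387, 445 and 898 in Vector (log2 fold change 1.21, SE 0.20, adjusted p = 0.00301), and the lines differed at every number. SLC16A3 rose as well (log2 fold change 1.09, SE 0.18, adjusted p = 0.00324), and in each line its level was lowest at P8 or P11 and highest at P13. The enzymes that rose were PFKL, TPI1, PFKP and HK1. PFKL, the liver-type phosphofructokinase, had 2578, 2108 and 3873 normalized reads in GOLPH3 and 1013, 1489 and 3676 in Vector (log2 fold change 1.22, SE 0.25, adjusted p = 0.00768), with both P13 libraries above the other 4. TPI1, the triose phosphate isomerase, had 9073, 11909.8 and 14700.3 normalized reads in GOLPH3 and 7769, 10659 and 13423 in Vector (log2 fold change 0.74, SE 0.18, adjusted p = 0.0155). PFKP and HK1, with values above, had log2 fold changes of 0.69 (adjusted p = 0.0328) and 0.61 (adjusted p = 0.0377).

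The members that fell with HIF1A were PLOD2, KDM3A, LDHB and PDK1. PLOD2 was highest at P8 or P11 in each line (log2 fold change -0.90, SE 0.22, adjusted p = 0.0153). KDM3A had 1841, 909 and 1263 normalized reads in GOLPH3 and 1658, 1089 and 791 in Vector (log2 fold change -0.80, SE 0.22, adjusted p = 0.0291). PDK1, a pyruvate dehydrogenase kinase and classical HIF target, had 530.3, 315 and 376 normalized reads in GOLPH3 and 688, 417 and 331 in Vector (log2 fold change -0.77, SE 0.23, adjusted p = 0.0388). LDHB had a log2 fold change of -0.72 (adjusted p = 0.0355). For KDM3A, LDHB and PDK1 the P12 libraries were also below P8 and P11 in each line, so these genes were highest in the P8 and P11 libraries. Leaving out the Vector library at P13 kept HIF1A, PLOD2, ADM, SLC16A3, PFKP and TPI1 of the 11 calls, and leaving out the Vector library at P11 kept HIF1A, PLOD2, ADM, SLC16A3 and PFKP. Leaving out either P12 library kept 7, without HK1, PFKP, LDHB and PDK1. Leaving out the GOLPH3 library at P8 kept 9 and lost PLOD2 (log2 fold change -0.57, adjusted p = 0.116) and PFKP (0.43, adjusted p = 0.258). Leaving out the GOLPH3 library at P13 kept 8 and lost PLOD2 (adjusted p = 0.059), PFKP (adjusted p = 0.205) and HK1 (adjusted p = 0.0884). Without the GOLPH3 library at P13 the median over the members was -0.06, so its sign rests on that library.

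**Figure D5:**
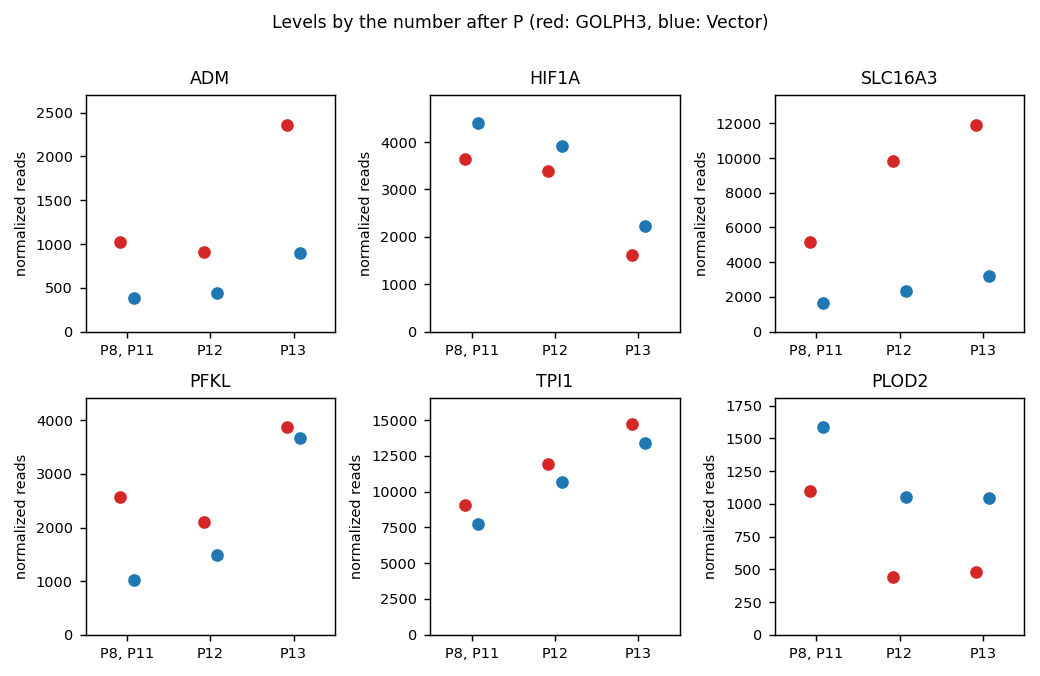
Normalized reads of 6 genes called in the P13 comparison, by the number after P, each point 1 library, with GOLPH3 in red and Vector in blue. HIF1A is lowest and PFKL and TPI1 are highest in the 2 P13 libraries, and PLOD2 is highest at P8 and P11 in each line.

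The same 40 other HIF targets gave 7 higher and 3 lower at P13, with a median of 0.19. DDIT4 at 2.94 (adjusted p = 0.00106), STC2 at 1.91 (adjusted p = 0.00192) and VEGFA, the endothelial growth factor, at 0.94 (adjusted p = 0.00677) were higher. MET at -0.92 (adjusted p = 0.0054), RBPJ at -0.83 (adjusted p = 0.00996) and ERO1A, an oxidase of the endoplasmic reticulum, at -0.81 (adjusted p = 0.0212) were lower (log2 fold changes). Of the 14 HIF regulators, ELOB, a subunit of the VHL ubiquitin ligase, was higher at 1.07 (adjusted p = 0.00364) and CUL2, its scaffold, was lower at -0.96 (adjusted p = 0.0053). Of the 26 other glycolysis genes 5 were higher and 2 lower, led by PCK2 at 1.72 (adjusted p = 0.00141), G6PC3 at 1.23 (adjusted p = 0.00304) and BSG, the chaperone of the lactate transporters, at 1.16 (adjusted p = 0.0037), and by SLC16A7 at -1.87 (adjusted p = 0.00301) and TIGAR at -0.83 (adjusted p = 0.0376). In the pentose phosphate pathway PGLS at 1.27 (adjusted p = 0.00367) and TKT, the transketolase, at 0.79 (adjusted p = 0.0166) were higher and 0 of 8 were lower. Of the pyruvate entry genes PC at 1.28 (adjusted p = 0.00671) was higher and PDP1 at -0.74 (adjusted p = 0.0372) lower. Of the marker lists, 5 of 14 colon epithelial markers were called higher and 2 lower at P13. Limma called 0 of 10 mesenchymal markers, with 4 higher at an unadjusted p under 0.05, and DESeq2 and edgeR called 1 higher each. All 8 HEK293 markers were positive, with a median log2 fold change of 0.54. Of these 8 limma and DESeq2 called 0 and edgeR 3 higher. They summed to 11557 normalized reads in the Vector library at P13, beside 3696 at P11 and 5023 at P12. The part of these markers in the P13 result was not tested.

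Of the main comparisons P13 called the most members, and the promoters of 5 of its members are shown. They are shown because the HIF pair binds the core sequence ACGTG or GCGTG. Either core was searched on both strands in the 250 bases before each start in the RefSeq promoter table for GRCh38.p14. The table matched 39 of the 43 members. A match is only a string of letters, and ACGTG includes the matches inside the E-box CACGTG that other factors bind. Either core was in a promoter of 32 of the 39 genes (82.1%), beside 47.4% of 27305 genes, and ACGTG was in 59.0% beside 21.7%. A gene with more promoters in the table has more places for a match. Per promoter the shares were 60.6% of 71 beside 43.2% of 35116 for either core. They were 39.4% beside 18.5% for ACGTG and 11.3% beside 6.34% for CACGTG. The members were listed as hypoxia response and glycolysis genes, so these shares describe the list and are not a test. Each stretch below is 100 bases upstream of the start, written in the direction of the gene, with the matches on either strand in capitals (CACGT or CACGC is a match on the other strand).
ADM, chr11:10304924-10305023, plus strand: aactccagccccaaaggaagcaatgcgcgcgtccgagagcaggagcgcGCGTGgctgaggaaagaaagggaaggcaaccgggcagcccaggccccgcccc
HIF1A, chr14:61695263-61695362, plus strand: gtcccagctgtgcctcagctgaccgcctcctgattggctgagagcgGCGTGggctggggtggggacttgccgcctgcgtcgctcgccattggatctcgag
SLC16A3, chr17:82234796-82234895, plus strand: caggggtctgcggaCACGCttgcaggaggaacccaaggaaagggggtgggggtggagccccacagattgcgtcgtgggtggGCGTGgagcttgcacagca
PFKL, chr21:44299841-44299940, plus strand: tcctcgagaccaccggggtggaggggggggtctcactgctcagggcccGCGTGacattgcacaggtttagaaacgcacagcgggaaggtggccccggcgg
PLOD2, chr3:146161319-146161418, minus strand: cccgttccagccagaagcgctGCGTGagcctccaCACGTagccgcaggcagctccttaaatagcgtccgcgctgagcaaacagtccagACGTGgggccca
CA9, chr9:35673828-35673927, plus strand: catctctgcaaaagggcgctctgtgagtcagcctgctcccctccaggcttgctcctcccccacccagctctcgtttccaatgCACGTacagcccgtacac
The first 5 are the members called at P13 with the smallest p that hold a match, and CA9, chosen after its values were seen, is added for its label values. ADM, SLC16A3 and PFKL rose and HIF1A and PLOD2 fell at P13, so promoters with these letters stood on both sides of that comparison.

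For a few rows the counting itself is uncertain. ALDOA, in most cells an abundant aldolase, had only 38.1 to 170 normalized reads, below ALDOC in every library. Other genes share 53.5% of its exon bases, 42.3% on the same strand with AC093512.2 (13.1 to 62.7 normalized reads), and how shared reads were counted is not given in the sources used here. LDHB shares 33.4% of its exon bases on the same strand with AC010197.2, which had under 1 normalized read in any library, and ANKRD37 shares 35.2% with UFSP2 on the other strand. GAPDH has 62 processed copies in the table, whose reads were 1.00% to 1.65% of its own, and those of BNIP3 were 1.80% to 4.72%. For the other members with copies the highest share was 3.70%, in EGLN3.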

How the data were processed

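RNA-seq of 6 libraries described by the study as HCT-116 was used, 3 per group as labelled. The submitters' processing notes name fastp 0.20.0, HISAT2 2.1.0, Cufflinks, featureCounts 1.6.1, DESeq2 and GRCh38, without roles. The deposited signal per gene and library is normalized by the authors. Every nonzero value was a whole multiple of 1 step per library (100% of values), so the reads were recovered.

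Values were tested as log2(value + 1) with limma 3.58.1 in R 4.3.3 (mean-dependent prior variance), keeping genes that reached 1 normalized read in 3 or more libraries, with Benjamini-Hochberg adjustment over all genes. The pseudocount understates changes of low genes. P8 and P11 were joined because neither occurs in both groups. The members, gene lists and comparisons were chosen with earlier results of these data known. Members named with full values are those called, the 5 smallest p in the label and P12 comparisons, and paired genes. From other lists at most 3 genes per direction are named, and some are not reported here. Levels per kb used merged GENCODE 29 exons. Alternatives used edgeR 4.0.16 and DESeq2 1.42.0 on the recovered reads, other filters, pseudocounts, blocks and left-out libraries. On simulated counts with 200 genes changed by 2 on the log2 scale, limma recovered 199 of 200 over 27322 genes in the label comparison with 8 false calls. It recovered 198 for P12 and 191 for P13, with 9 false calls each. The simulated libraries had a dispersion of 0.05 and no other difference between them. This checks that the fits run correctly and does not give their sensitivity in these data.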

Additional observations from a re-analysis of the deposited data

How the results depend on the processing

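Counts are of members called, with all genes in parentheses, beside 3 (1346) for the label, 5 (1073) for P12 and 11 (4474) for P13. For the label, DESeq2 gave 6 (2047), a value of at least 1 in every library 1 (405), a pseudocount of 0.1 and no trend in the prior variance 1 each, the P class as a block 16 (5549), the P number as a covariate 9 (2399), and the P12 and P13 libraries alone 17 (5191). For P12, DESeq2 gave 9, no filter 10, quantile normalization (628), a pseudocount of 0.1 2 (555), and no trend, the P12 indicator alone and no label term 0 (0) each, with 6, 9 and 7 members at an unadjusted p under 0.05. For P13, a pseudocount of 0.1 gave 6 and no trend 0 (0), with 6 members at an unadjusted p under 0.05. The cause of these changes was not tested. Leaving out a library gave 1 to 8 members (459 to 1528 genes) for the label, 0 to 15 (53 to 2410) for P12 and 7 to 11 (2049 to 5275) for P13. No call changed direction. Over all alternatives 215 single-gene results kept their side of the threshold, 80 lost it and 11 passed it. SLC16A3 lost its label call once, with no trend.

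With the replicate number as a block, 3 members (1081 genes) were called for the label, ADM, MB and SLC16A3, and 17 (3843) for P12. Whether the replicate numbers pair the samples is not given. The deviations of same-numbered libraries from their group means correlated at -0.23, -0.15 and 0.26, while libraries of the same P class correlated at 0.26, 0.26 and 0.33. The P13 pair is in both sets, and deviations within a group cancel out, so these values are not independent and do not settle the pairing. No paired analysis was possible because P13 is replicate 3 in both groups, for the P13 comparison. Depth limits low genes such as MB and CA9. With 2 libraries per P level, 1 library decides many P12 and P13 calls.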

Other observations

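Ratios between related genes, taken per kb of exon and given without a test, differed with the number after P for several pairs. ENO1 over ENO2 was 24.3, 73.0 and 19.7 in GOLPH3 and 22.5, 53.8 and 43.4 in Vector, highest at P12 in each line. PFKFB3 over PFKFB4 was 1.95, 7.83 and 2.43 in GOLPH3 and 3.23, 7.24 and 4.41 in Vector, also highest at P12 in each line. PDK1 over PDK3 was 0.258, 0.928 and 0.389 in GOLPH3 and 0.217, 0.230 and 0.119 in Vector, higher at P12 in each line. PFKP over PFKM was 2.92, 5.15 and 6.0 in GOLPH3 and 2.16, 2.89 and 2.30 in Vector, with every GOLPH3 value above every Vector value, narrowly at P8.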
